A study of Mus musculus with 6 samples.

Results

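The vacuolar proton pump and the lysosomal machinery that feeds amino acid signals to mTORC1 were followed in macrophages grown from mouse bone marrow and driven to the M1 state, in a group labelled NSUN2-KO and a group labelled NC. Members were the protein-coding genes whose names start with Atp6v0, Atp6v1 or Atp6ap, together with Lamtor1 to Lamtor5, Rraga, Rragc, Rragd, Flcn, Mtor, Rptor, Mlst8, Tsc1, Tsc2 and Rheb. That rule found 41 of the 54532 genes listed, and 30 of the 41 averaged 1 FPKM or more across the 6 libraries and were tested. FPKM is a read count scaled by gene length and library depth. Levels of different genes can be compared only as far as the deposited gene lengths fit their transcripts.

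Bone marrow-derived macrophages are grown in culture from marrow progenitors. Both groups had received LPS and IFN-γ, the stimuli of the inflammatory M1 state, and no unstimulated cells were analysed here. NSUN2 is an enzyme that methylates cytosines in tRNAs and in some other RNAs. The sources used here do not say what NC stands for, how the knockout was made, or the strain and age of the mice. Each group had 3 libraries, called biological replicates, but not tied to named animals, so p-values measure only the spread between these libraries.

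The V-ATPase is a rotary pump that uses ATP to acidify lysosomes, endosomes and phagosomes. Its cytosolic V1 sector splits ATP and turns a rotor, and its membrane V0 sector carries the protons. On the lysosomal surface the pump is bound to Ragulator, a scaffold made of the LAMTOR proteins, which tethers and activates the Rag GTPases when amino acids are plentiful. The Rags bring mTORC1 to the lysosome, where Rheb activates it unless the TSC complex has switched Rheb off. In macrophages the pump serves the killing and digestion of engulfed material.

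The libraries held 35019033 to 45636131 reads, recovered from FPKM and gene length. Nsun2 measured 1.88, 2.04 and 1.84 FPKM in NC and 0.967, 1.36 and 0.863 FPKM in NSUN2-KO, with a mean at 55.4% of NC. The log2 fold change was -0.51 (SE 0.10, limma adjusted p = 0.0229) on log2(FPKM + 1), which understates the change of a low gene. Limma voom on the recovered reads gave -0.89 (adjusted p = 0.000146). Nsun2 was called in 10 of 16 alternative fits. Of the 6 fits that each left out 1 library, 1 kept the call (without NSUN2-KO replicate 2, limma adjusted p = 0.0124). In the others of these 6 the adjusted p was 0.0532 to 0.0848. For NC the 8 macrophage markers had sums of 3929 to 4018 FPKM, against 3368 to 3409 for NSUN2-KO. Lyz2, Cd68 and Fcgr1 were called lower and Cd14 higher. Most of the gap in the sums came from Lyz2, whose mean went from 1736 to 1163 FPKM. As a share of NC, the NSUN2-KO mean was 67.0% for Lyz2, 87.1% for Cd68, 90.8% for Mertk and 91.9% for Fcgr1. It was 101.4% for Csf1r, 102.4% for Itgam, 107.2% for Adgre1 and 122.2% for Cd14. The sums thus do not stand for a fall shared by all 8. Summed neutrophil markers were 73.5 to 80.8 FPKM in NC and 59.0 to 63.1 FPKM in NSUN2-KO, with Csf3r and S100a9 called lower of 4 tested. Summed dendritic cell markers were 6.14 to 7.49 and 9.33 to 10.4 FPKM, with only Ccr7 called higher of 3 tested. Osteoclast markers, relevant because Atp6v0d2 is typical of osteoclasts, summed to 17.1 to 17.3 FPKM in NC and 15.3 to 17.1 FPKM in NSUN2-KO. Stromal markers, all below the filter, summed to 1.52 to 1.72 FPKM in NC and 0.754 to 1.04 FPKM in NSUN2-KO. Among them Col1a1 and Col1a2 were lower in NSUN2-KO and Dcn was higher. Markers of T and NK, B and erythroid cells summed to at most 0.362 FPKM in every library, and Cd3e, Cd3g and the 4 globin genes were at 0 in all 6. Whether these differences in markers have a part in any result here was not tested. In bulk RNA, fewer cells of a type and less RNA per cell cannot be told apart. The groups also differed in sex-linked RNA: the Y-linked genes Ddx3y and Eif2s3y measured 6.57 and 5.51 FPKM on average in NC and 0 in each NSUN2-KO library. The X-linked Xist averaged 14.5 FPKM across NC and 30.6 FPKM across NSUN2-KO. Sex composition and genotype cannot be told apart in this design. Of the tested members, Atp6ap1 and Atp6ap2 lie on the X chromosome.

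The transcripts of the pump and of the nutrient-sensing machinery differed between the groups by small amounts only. All 30 tested members had a log2 fold change between -0.18 and 0.12 (NSUN2-KO minus NC, on the log2(FPKM + 1) scale). The 95% limma intervals of the 30 reached no lower than -0.31, for Tsc2, and no higher than 0.24, for Rheb. At a limma adjusted p below 0.05, 1 member was called lower (Lamtor1) and 0 were called higher, where 8.49% of all 9443 tested genes were called, 4.3% lower and 4.19% higher. The members' count was not above that background. At an unadjusted p below 0.05 in limma, 4 members were lower (Lamtor1, Atp6v1b2, Tsc2 and Atp6v0c) and 0 were higher. Of all 9443 tested genes, 25.5% passed in either direction, 1293 lower and 1116 higher. The members' share of lower genes was not above that background. Limma voom on the recovered reads called these 4 of the 30 lower and 0 higher, against 7.05% lower and 7.48% higher over all genes. With voom the members' share of lower genes was thus above that background, and their share of higher genes below it. Whether the members differ from other genes in this was not tested. The median log2 fold change of the 30 was -0.04, with 20 below 0 and 10 above, and 11 of the 30 changed sign in at least 1 alternative fit. That of all tested genes was -0.01, with 4892 below 0 and 4551 above. A log2 fold change of less than 0.2 in size on the log2(FPKM + 1) scale held for 86.0% of all tested genes. It held for 30 of 30 members, but the limit was chosen after their values were seen. That count follows from the choice and cannot be set against the share of all genes. With voom the log2 fold change of Tsc2 was -0.21, beyond the limit. The values of the 2 groups did not overlap for 8 of the 30 members, 6 lower and 2 higher, where 31.1% of all tested genes were apart in this way, 16.7% lower and 14.4% higher. Summed over the 41 members, the level was 1122, 1141 and 1135 FPKM in NC and 1098, 1119 and 1091 FPKM in NSUN2-KO. These sums did not overlap, by a narrow margin of 1122 FPKM in the lowest NC against 1119 FPKM in the highest NSUN2-KO library. The NSUN2-KO mean was 97.4% of the NC mean. Sums were not taken under another scaling, which could close so narrow a gap. By sector, the NSUN2-KO sum was 98.4% of NC for V1, 96.7% for V0 and 94.5% for Ragulator, and the libraries of the 2 groups overlapped for V0 only. For V1 the margin was again narrow, at 442.2 FPKM in the lowest NC and 440.5 FPKM in the highest NSUN2-KO library. The median log2 fold change was 0.01 over 8 tested V1 genes, -0.03 over 6 V0 genes, -0.08 over 5 Ragulator genes and -0.08 over the 3 mTORC1 subunits.

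**Figure D1:**
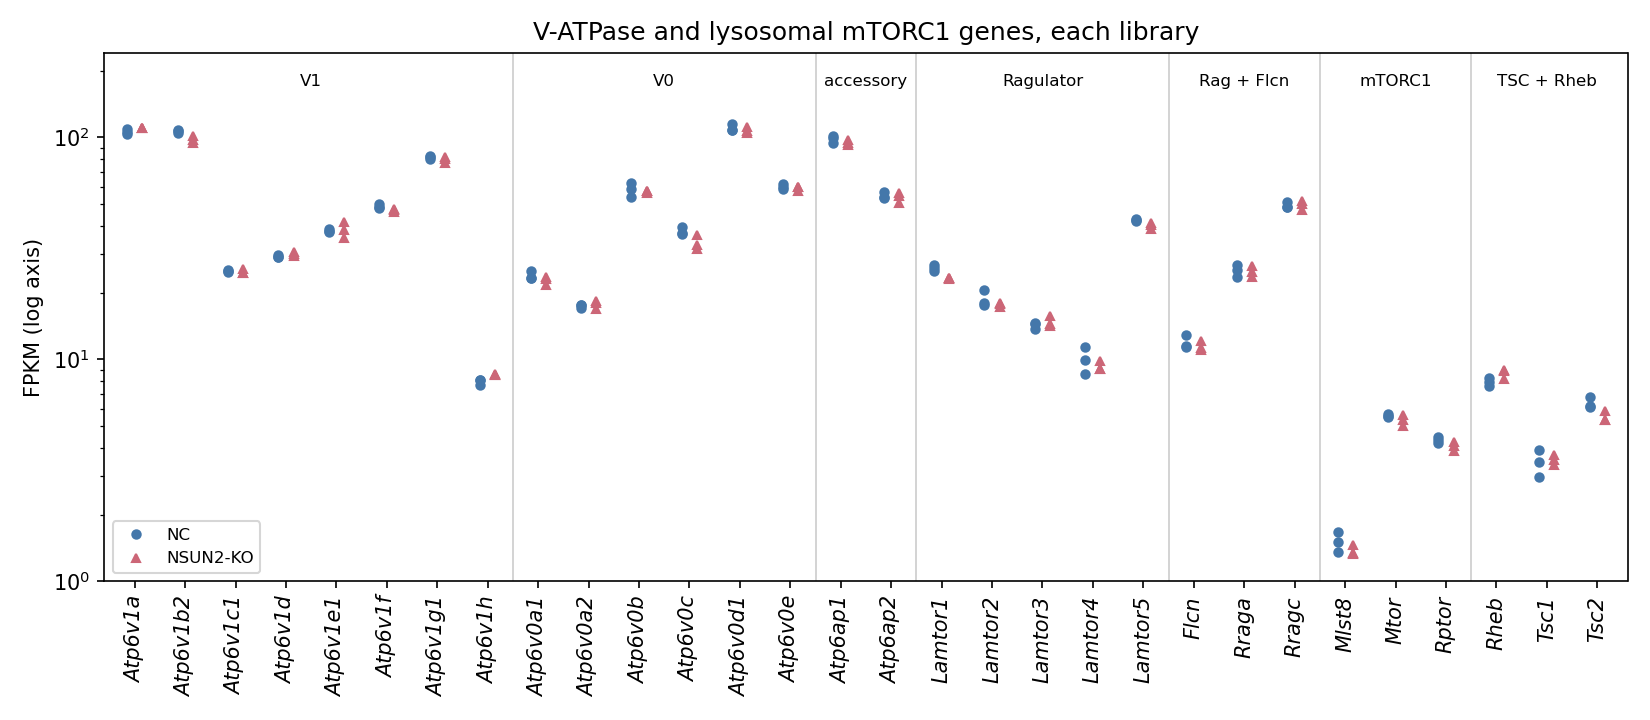
FPKM (log axis) of the 30 tested members in each library, ordered by role, with circles for the 3 NC and triangles for the 3 NSUN2-KO libraries. Levels run from Atp6v1a, Atp6v1b2 and Atp6v0d1 at about 94.8 to 115 FPKM down to Mlst8 at 1.32 to 1.67 FPKM, and the gap between groups is small beside the gaps between genes.

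**Figure D2:**
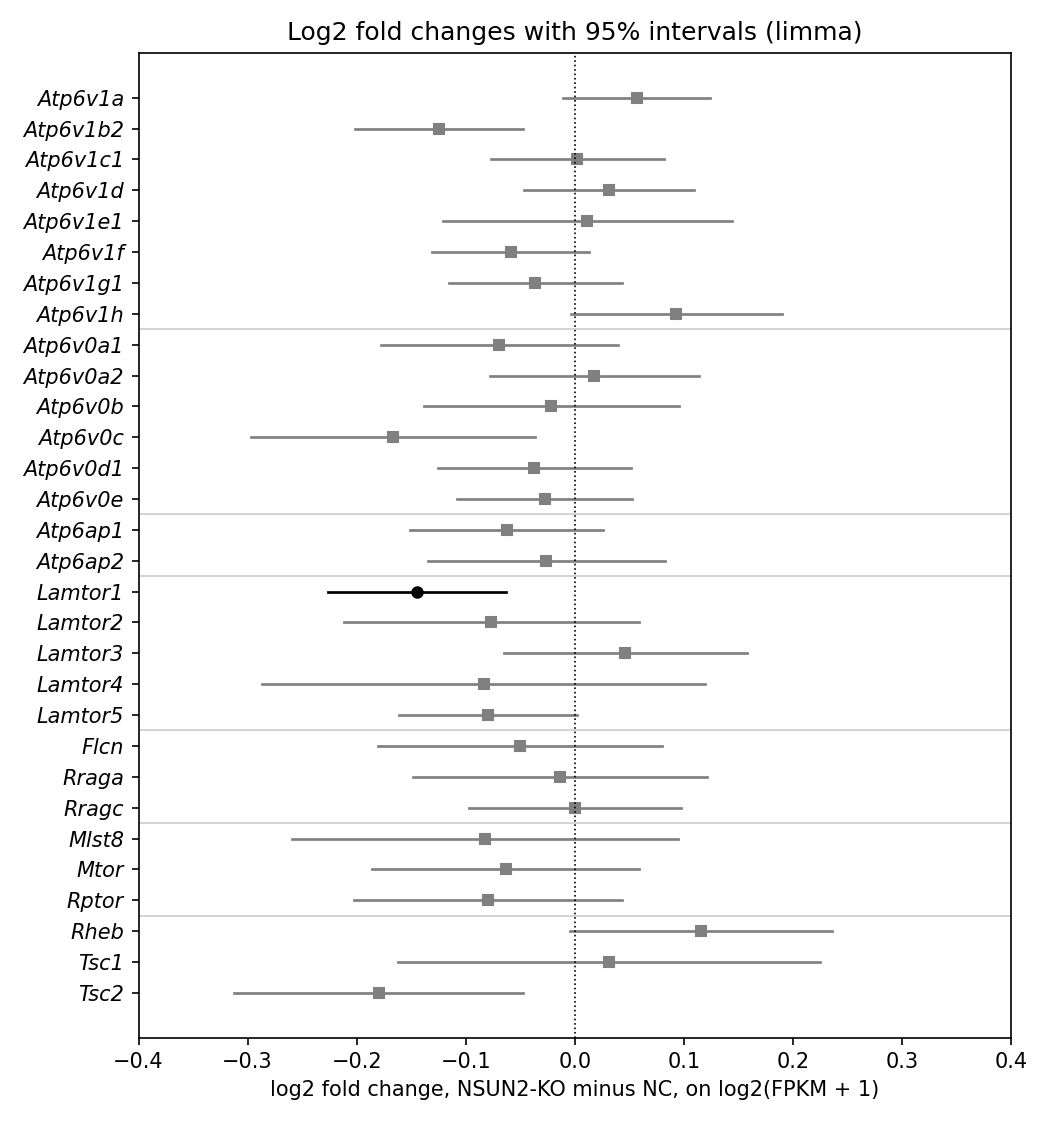
Log2 fold change (NSUN2-KO minus NC, on log2(FPKM + 1)) of each tested member with its 95% limma interval, from 3 libraries per group. The black circle marks Lamtor1, the called member, grey squares mark the others, and the intervals of Lamtor1, Atp6v1b2, Tsc2 and Atp6v0c lie wholly below 0, and those of the other 26 hold 0.

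A feature that the choice of members did not use is the promoter sequence. TFEB and TFE3, transcription factors that mTORC1 holds in the cytosol, bind a lysosomal gene element with CACGTG at its core. The 7 letters TCACGTG were searched on both strands in RefSeq windows (GRCm38.p6) from 250 bases before to 50 bases after each start. Windows were found for 33 of the 41 members and 24 of the 30 tested ones. Atp6v1b2, Atp6v1c1, Atp6v1g1, Atp6v1h, Atp6v0a2, Atp6v0d2, Atp6ap1l and Lamtor3 had no entry. The 7 letters were present in 8 of the 33 (24.2%), where 4.29% of all genes with a window held them. All 8 were among the 24 tested (33.3%), where 7.76% of the tested protein-coding genes with a window held them. These 8 were Atp6v1a, Atp6v0b, Atp6v0d1, Atp6v0e, Lamtor1, Lamtor4, Rragc and Rheb, and no other member's window held CACGTG. A match describes the letters only and does not show binding. The 8 had a median log2 fold change of -0.02 (from -0.14 to 0.12) and the 16 tested members with a window but no match had -0.06 (from -0.18 to 0.03). Of the factors themselves, Tfeb measured 4.05 ± 0.16 FPKM in NC and 3.64 ± 0.042 in NSUN2-KO, and the X-linked Tfe3 14.2 ± 0.55 and 13.1 ± 0.16 FPKM (SD, n = 3). Neither was called (limma adjusted p = 0.185 and 0.156).

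Of the 8, 4 are shown as the 250 bases before the RefSeq start, 5′ to 3′, with TCACGTG or its reverse complement in capitals. Lamtor1 is the called member, Atp6v1a the catalytic subunit, Lamtor4 a member with 2 matches, and Rragc the member with the smallest fold change.
Lamtor1 (chr7:101905587-101905836, plus strand): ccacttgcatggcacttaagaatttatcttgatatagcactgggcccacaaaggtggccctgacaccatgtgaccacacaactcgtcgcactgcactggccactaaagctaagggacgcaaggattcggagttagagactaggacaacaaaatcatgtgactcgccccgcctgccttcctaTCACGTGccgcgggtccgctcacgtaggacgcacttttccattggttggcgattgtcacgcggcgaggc
Lamtor4 (chr5:138255232-138255481, plus strand): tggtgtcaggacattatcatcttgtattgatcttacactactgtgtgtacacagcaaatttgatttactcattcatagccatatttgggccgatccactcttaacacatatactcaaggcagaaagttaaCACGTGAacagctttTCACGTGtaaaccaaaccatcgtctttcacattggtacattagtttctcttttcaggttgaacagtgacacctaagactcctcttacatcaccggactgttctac
Atp6v1a (chr16:44139260-44139509, minus strand): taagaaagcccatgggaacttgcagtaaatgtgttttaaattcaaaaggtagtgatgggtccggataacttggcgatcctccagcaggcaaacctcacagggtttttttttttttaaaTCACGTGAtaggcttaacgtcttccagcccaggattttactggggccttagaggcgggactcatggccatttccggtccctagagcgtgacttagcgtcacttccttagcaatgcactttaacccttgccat
Rragc (chr4:123917183-123917432, plus strand): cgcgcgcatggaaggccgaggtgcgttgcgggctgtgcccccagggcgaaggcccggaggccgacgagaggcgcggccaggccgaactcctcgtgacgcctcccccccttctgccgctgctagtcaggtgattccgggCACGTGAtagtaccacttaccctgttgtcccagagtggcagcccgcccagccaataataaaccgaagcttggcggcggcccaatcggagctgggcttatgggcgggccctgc
The core begins 68 bases before the start in Lamtor1, 120 and 104 bases before it in Lamtor4, 131 in Atp6v1a and 112 in Rragc. In Atp6v1a the 8 letters in capitals read the same on both strands, also with the a before and the t after them included. The windows had a GC content of 56.3% in Lamtor1, 40.3% in Lamtor4, 45.3% in Atp6v1a and 70.7% in Rragc.

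In the V1 sector, the catalytic head is built from alternating A and B subunits, encoded here by Atp6v1a and Atp6v1b2. Atp6v1a measured 108.6, 105.3 and 104.1 FPKM in NC and 109.7, 110.4 and 110.7 FPKM in NSUN2-KO, both in replicate order. All 3 NSUN2-KO values lay above the NC values, by a small margin, and the gene was not called (log2 fold change 0.06, SE 0.03, limma adjusted p = 0.271). Atp6v1b2 measured 108.0, 106.8 and 104.7 FPKM in NC and 94.8, 97.2 and 101.0 FPKM in NSUN2-KO. The gene (ENSMUSG00000006273) spans chr8:69088646-69113711 on the plus strand of GRCm38. Here the 3 NSUN2-KO values lay below the NC values (log2 fold change -0.12, SE 0.03, limma adjusted p = 0.0606). Atp6v1b2 passed the threshold with voom (adjusted p = 0.0244), among protein-coding genes only (0.0429), with a filter at a mean of 5 FPKM (0.0403), without NSUN2-KO replicate 3 (0.0497) and with the trend over GC content and gene length removed (0.0302). It was not called in the other 12 alternatives, where the adjusted p was 0.0609 to 0.198.

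The 2 subunits are used in equal numbers in the pump, and their transcripts had nearly equal FPKM in NC. That level rests on the deposited gene lengths of 6044 bases for Atp6v1a and 5305 for Atp6v1b2, while a difference between groups does not. The ratio of Atp6v1a to Atp6v1b2 FPKM was 1.005, 0.986 and 0.994 in NC and 1.157, 1.136 and 1.097 in NSUN2-KO. Every NSUN2-KO library was above every NC library, with a mean of 0.995 ± 0.0093 in NC and 1.13 ± 0.031 in NSUN2-KO (SD, n = 3). This pair was chosen after its values were seen, so the difference is a description without a test. A ratio taken within a library does not depend on how libraries are scaled. The difference of the 2 log2 fold changes was 0.18, and a change of filter, variance trend, replicate block or scaling could hardly move it. Among the alternatives that could, it was 0.16 to 0.20 without 1 library and 0.18 with voom. With other pseudocounts it was 0.17 to 0.18, and 0.19 with the trend over GC content and gene length removed. The GC content of the 2 genes' transcripts was 47.8% and 47.1%. Slc18a1, on the opposite strand, overlaps Atp6v1b2 and averaged 0.851 ± 0.12 and 0.730 ± 0.16 FPKM in the 2 groups (SD, n = 3). The sources used here do not say whether counting used strand, so reads of the shared stretch are uncertain.

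**Figure D3:**
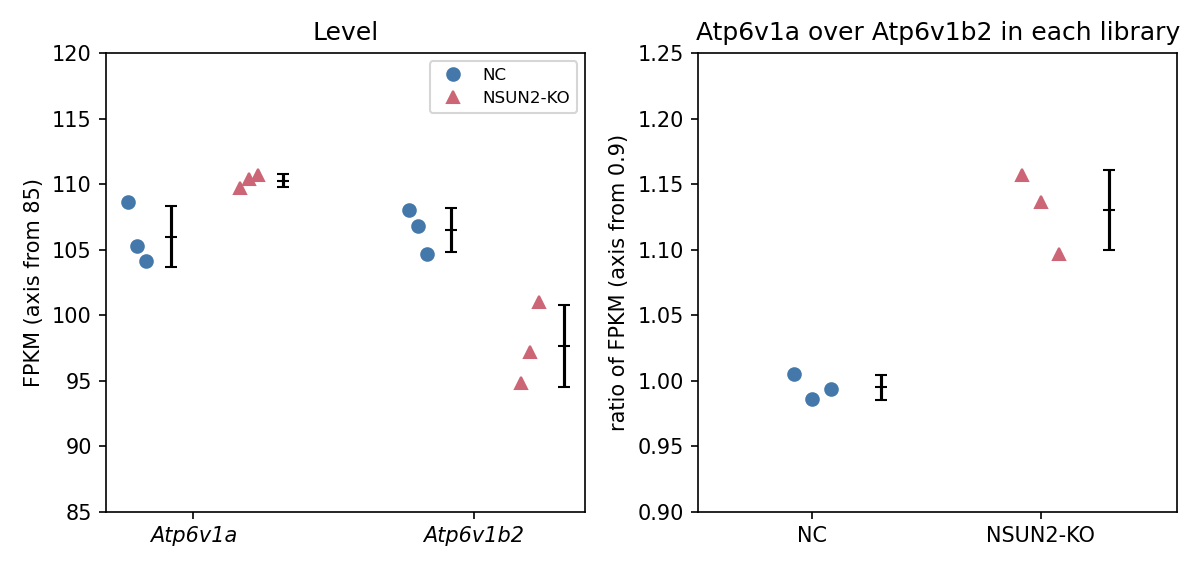
Left, FPKM of Atp6v1a and Atp6v1b2 in each library; right, the ratio of the 2 within each library, with bars for the mean and SD of 3 libraries; neither axis starts at 0. The ratio sits between 0.986 and 1.005 in NC and between 1.097 and 1.157 in NSUN2-KO.

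None of the other V1 subunits was called. Atp6v1h, a regulatory subunit that links ATP use to the assembled state, measured 8.06, 7.69 and 8.05 FPKM in NC and 8.50, 8.61 and 8.47 FPKM in NSUN2-KO. Its groups did not overlap and it was not called (log2 fold change 0.09, SE 0.04, limma adjusted p = 0.211). Atp6v1f, a part of the rotor, measured 48.6, 48.3 and 49.9 FPKM in NC and 47.5, 47.1 and 46.2 FPKM in NSUN2-KO. These groups too were apart, the NSUN2-KO values being lower, and the gene was not called (log2 fold change -0.06, limma adjusted p = 0.284). The rotor subunit Atp6v1d and the stalk subunits Atp6v1c1, Atp6v1e1 and Atp6v1g1 overlapped between groups, with log2 fold changes of 0.03, 0.00, 0.01 and -0.04. By FPKM in NC, Atp6v1g1 (81.5 ± 1.5) came after Atp6v1a and Atp6v1b2, followed by Atp6v1f (49.0 ± 0.82), Atp6v1e1 (38.0 ± 0.72), Atp6v1d (29.1 ± 0.47), Atp6v1c1 (24.9 ± 0.26) and Atp6v1h (7.93 ± 0.21, SD, n = 3). Atp6v1a and Atp6v1b2 did not differ from each other beyond their spread in NC, and the other neighbours in that order did not overlap. The isoforms of specialised epithelia and germ cells were near the limit of detection. Atp6v1b1 and Atp6v1c2 had 2 reads in NSUN2-KO replicate 1 and 0 in the other 5 libraries, and Atp6v1e2 and Atp6v1g3 had 0 in all 6. Atp6v1g2, an isoform of neurons, stayed below the test's filter at 0.618, 0.722 and 0.743 FPKM in NC and 0.456, 0.568 and 0.626 FPKM in NSUN2-KO, and it overlaps Nfkbil1 on the opposite strand (2.58 ± 0.18 FPKM in NC, SD, n = 3). Atp6v1fnb, which the name rule includes, is a neighbour of Atp6v1f and not known as a pump subunit, and it had 0 reads.

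In the V0 sector Atp6v0c, the main subunit of the proton-carrying ring, had the lowest fold change. It measured 36.6, 37.2 and 39.5 FPKM in NC and 32.8, 36.4 and 31.6 FPKM in NSUN2-KO, with NSUN2-KO replicate 2 close to the NC values. The groups did not overlap (log2 fold change -0.17, SE 0.06, limma adjusted p = 0.114). Without NSUN2-KO replicate 2 the gene was called (log2 fold change -0.22, adjusted p = 0.0442), and voom called it as well (adjusted p = 0.0292). These were the only 2 calls among 17 alternatives. With the trend over GC content and gene length removed the log2 fold change was -0.09 (limma adjusted p = 0.437). The gene (ENSMUSG00000024121) spans chr17:24163866-24169702 on the minus strand of GRCm38. A pseudogene, Atp6v0c-ps2, was listed at 9.40, 9.49 and 8.84 FPKM in NC and 8.19, 11.9 and 12.5 FPKM in NSUN2-KO, and near-identical copies can share reads, so both levels are uncertain.

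The remaining tested V0 genes overlapped between groups. Atp6v0b, which encodes the ring's single variant subunit, measured 58.1 ± 4.1 and 57.1 ± 0.65 FPKM in NC and NSUN2-KO (SD, n = 3). Atp6v0d1, the subunit that couples rotor and ring, measured 108.2, 115.0 and 108.1 FPKM in NC and 104.5, 111.3 and 107.0 FPKM in NSUN2-KO (log2 fold change -0.04). Its macrophage and osteoclast isoform Atp6v0d2 measured 0.600, 0.362 and 0.733 FPKM in NC and 0.385, 0.399 and 0.314 FPKM in NSUN2-KO, on 32 to 78 reads per library. It was below the filter and the groups overlapped. Atp6v0e, a small ring-associated subunit, had a log2 fold change of -0.03, and its isoform Atp6v0e2 had 0 to 10 reads per library. The a subunit forms the proton path and its isoforms direct the pump to different membranes. Tcirg1, which encodes the a3 isoform of lysosomes and osteoclasts and lies outside the name rule, was the most abundant, at 137.6, 148.5 and 143.9 FPKM in NC and 136.2, 134.5 and 134.7 FPKM in NSUN2-KO. Its groups did not overlap, and it was not called (log2 fold change -0.08, limma adjusted p = 0.176). With the trend over GC content and gene length removed its log2 fold change was -0.01 (limma adjusted p = 0.857). Atp6v0a1 measured 23.9 ± 1.1 and 22.7 ± 0.95 FPKM and Atp6v0a2 17.4 ± 0.29 and 17.7 ± 0.72 FPKM in NC and NSUN2-KO (SD, n = 3). The kidney and inner ear isoform Atp6v0a4 had 0 reads, which at a floor of 3 reads allows up to 0.0172 FPKM. Of the accessory genes, Atp6ap1, needed for pump assembly, measured 98.7 ± 4.0 and 94.4 ± 2.3 FPKM, and Atp6ap2, the prorenin receptor, 54.7 ± 2.0 and 53.8 ± 2.9 FPKM. These X-linked genes overlapped between groups (log2 fold change -0.06 and -0.03), and Atp6ap1l had 0 reads.

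Of the 5 Ragulator genes, 1 fell. Lamtor1, whose lipid-anchored product fixes Ragulator to the lysosomal membrane, measured 25.1, 26.5 and 25.9 FPKM in NC and 23.3, 23.1 and 23.3 FPKM in NSUN2-KO. The 3 NSUN2-KO values lay close together and below all NC values, at 90.1% of the NC mean. The gene (ENSMUSG00000030842) spans chr7:101905904-101926675 on the plus strand of GRCm38. The log2 fold change was -0.14 (SE 0.04, limma adjusted p = 0.0464), just inside the threshold, on 2610 to 3905 reads per library. The call was kept without NC replicate 1 (adjusted p = 0.0497) and lost when any other library was left out: NC replicate 2 (0.135) or 3 (0.148), or NSUN2-KO replicate 1 (0.141), 2 (0.0982) or 3 (0.0880). It was also lost with every gene above 0 tested (0.0823), with a variance prior that ignores expression level (0.0922), after rescaling to TPM (0.0747) or by median ratios (0.0528), and with the trend over GC content and gene length removed (0.0597). The fold change stayed negative throughout, from -0.17 to -0.10. Lrrc51, on the opposite strand, overlaps Lamtor1 and averaged 1.01 ± 0.23 and 0.965 ± 0.43 FPKM in the 2 groups (SD, n = 3).

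Lamtor5, a structural partner in the scaffold, measured 42.4, 42.0 and 42.7 FPKM in NC and 40.4, 41.3 and 38.6 FPKM in NSUN2-KO. Its groups did not overlap either, and it was not called (log2 fold change -0.08, SE 0.04, limma adjusted p = 0.209). With the trend over GC content and gene length removed it was called (log2 fold change -0.11, adjusted p = 0.0490). Lamtor2 and Lamtor3, which pair as the docking core for the Rags, measured 18.7 ± 1.6 and 14.2 ± 0.40 FPKM in NC and 17.7 ± 0.36 and 14.7 ± 0.80 FPKM in NSUN2-KO (SD, n = 3). Lamtor4 measured 8.60, 9.95 and 11.4 FPKM in NC and 9.02, 9.83 and 9.08 FPKM in NSUN2-KO, and its 95% interval was the widest among the tested members (-0.29 to 0.12). The groups of Lamtor2, Lamtor3 and Lamtor4 overlapped.

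The Rag GTPases work as pairs of RagA or RagB with RagC or RagD. Rragc measured 51.4, 48.8 and 48.6 FPKM in NC and 49.9, 51.6 and 47.3 FPKM in NSUN2-KO, with equal means (log2 fold change 0.00, 95% interval -0.10 to 0.10). Rraga measured 25.4, 23.4 and 26.7 FPKM in NC and 26.4, 23.6 and 24.7 FPKM in NSUN2-KO (log2 fold change -0.01). Rragd, the alternative partner and a known TFEB target, was far lower at 0.290, 0.245 and 0.272 FPKM in NC and 0.404, 0.474 and 0.268 FPKM in NSUN2-KO, on 52 to 86 reads per library. The groups overlapped through NSUN2-KO replicate 3, and the gene was below the filter. Rragb, outside the rule, was listed at 0.0387 to 0.0917 FPKM in NC and 0.0882 to 0.153 FPKM in NSUN2-KO. By FPKM the RagA and RagC genes were the most abundant Rag transcripts in both groups. Flcn, which encodes folliculin, the protein that acts on RagC and RagD, measured 11.9 ± 0.79 and 11.5 ± 0.53 FPKM (SD, n = 3) and overlapped between groups.

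The core subunits of mTORC1 had low and similar levels. Mtor, the kinase, measured 5.70, 5.49 and 5.56 FPKM in NC and 5.32, 4.99 and 5.60 FPKM in NSUN2-KO. Rptor, the substrate-binding subunit raptor, measured 4.22, 4.49 and 4.34 FPKM in NC and 4.08, 3.88 and 4.24 FPKM in NSUN2-KO. Mlst8, the small partner of the kinase, measured 1.51 ± 0.15 and 1.37 ± 0.072 FPKM on 158 to 217 reads per library (SD, n = 3). The 3 log2 fold changes were -0.06, -0.08 and -0.08, with overlapping groups and adjusted p-values of 0.402 to 0.552 in limma. Rptoros, on the strand opposite to Rptor and within its span, was listed at 0.0435 to 0.837 FPKM in NC and 0.272 to 0.487 FPKM in NSUN2-KO.

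At the switch above mTORC1, Tsc2 and Rheb had fold changes of opposite sign, and neither was called. Tsc2, the part of the TSC complex that turns Rheb off, measured 6.13, 6.77 and 6.19 FPKM in NC and 5.35, 5.32 and 5.83 FPKM in NSUN2-KO. The gene (ENSMUSG00000002496) spans chr17:24595816-24632630 on the minus strand of GRCm38. Its groups did not overlap, and its log2 fold change of -0.18 was the lowest among the tested members (SE 0.06, limma adjusted p = 0.0982). Limma voom on reads gave -0.21 with an adjusted p of 0.0195, the only call among 17 alternatives. Without 1 library the limma adjusted p was 0.0859 to 0.262. Over all alternatives the log2 fold change was -0.22 to -0.11. Pkd1 overlaps Tsc2 on the opposite strand and measured 2.24 ± 0.17 and 2.38 ± 0.24 FPKM in NC and NSUN2-KO (SD, n = 3), so reads of the shared stretch are uncertain. Rheb, the GTPase that activates the kinase, measured 8.25, 7.88 and 7.63 FPKM in NC and 9.0, 8.83 and 8.17 FPKM in NSUN2-KO. The lowest NSUN2-KO value lay below the highest NC value (log2 fold change 0.12, SE 0.05, limma adjusted p = 0.212). Tsc1, the stabilising partner of Tsc2, measured 3.46, 3.90 and 2.96 FPKM in NC and 3.54, 3.69 and 3.33 FPKM in NSUN2-KO, with overlapping groups.

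Base composition moved with these small differences. Across the 30 tested members the log2 fold change and the GC content of the transcripts had a Spearman correlation of -0.63, and across all 9443 tested genes, where GC content was known, it was -0.37. Members share libraries and are not independent, so these are descriptions. Lamtor1, Tsc2 and Atp6v0c had a GC content of 53.1%, 55.2% and 58.1%, and Rheb and Atp6v1h 45.2% and 45.1%. With each library corrected for its trend over GC content and gene length, the log2 fold changes were -0.10 for Lamtor1, -0.13 for Tsc2, -0.09 for Atp6v0c, 0.07 for Rheb and 0.05 for Atp6v1h. Others moved further from 0: Atp6v1b2, at 47.1% GC, went from -0.12 to -0.15 and was called, Lamtor5 went from -0.08 to -0.11 and was called, Atp6ap2 went from -0.03 to -0.08 and Rragc from 0.00 to -0.05. The median of the 30 was -0.04 both before and after the correction.

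**Figure D4:**
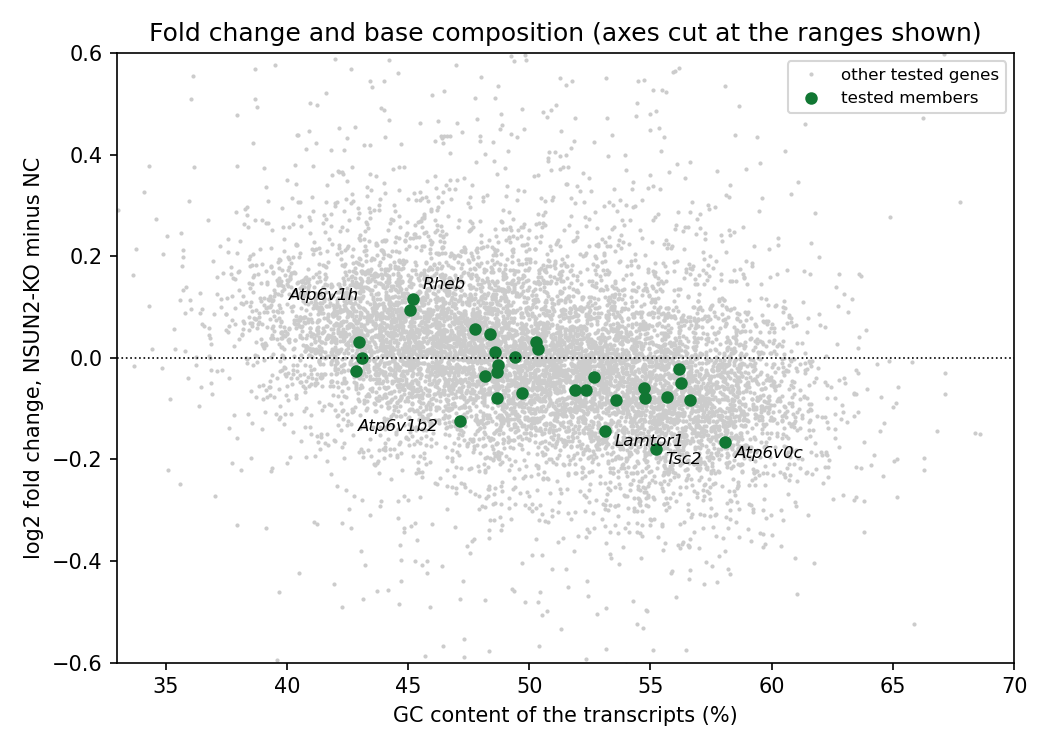
Log2 fold change (NSUN2-KO minus NC, on log2(FPKM + 1)) against the mean GC content of each gene's transcripts, with the tested members in green and the other tested genes within the axis limits in grey. Rheb and Atp6v1h, at about 45% GC, lie above 0, and Lamtor1, Tsc2 and Atp6v0c, above 53% GC, lie below it.

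Neighbouring parts of the pathway were read from lists of 98 genes, of which 91 were in the table and 73 were tested. Of the 73, 3 were called higher and 1 lower, where 4.19% and 4.3% of all tested genes were. The growth factor, energy and hypoxia input to TSC held all 3 that rose, of 15 tested, and its median log2 fold change was -0.03. Bnip3, a mitochondrial protein induced by low oxygen that can also bind Rheb, rose from 59.6 ± 4.7 to 91.1 ± 6.5 FPKM (SD, n = 3). Its values were 64.4, 55.0 and 59.4 FPKM in NC and 90.9, 97.7 and 84.8 FPKM in NSUN2-KO, for a log2 fold change of 0.61 (SE 0.07, limma adjusted p = 0.00246). It was called in all 17 alternative fits. Gsk3b, a kinase that phosphorylates TSC2, measured 12.6 ± 0.19 and 14.0 ± 0.16 FPKM (SD, n = 3; log2 fold change 0.15, limma adjusted p = 0.0485). Its call was lost in each of the 6 fits without 1 library (adjusted p from 0.0903 to 0.155). Prr5l, a partner of the sister complex mTORC2, was the gene that fell, from 9.87 ± 0.13 to 8.56 ± 0.37 FPKM (SD, n = 3; log2 fold change -0.19, limma adjusted p = 0.0451), and it too was lost without any 1 library (adjusted p from 0.0671 to 0.133).

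The other lists held no gene called at a limma adjusted p below 0.05. Among 21 tested genes of amino acid sensing above the Rags, 6 had an unadjusted p below 0.05, 3 higher and 3 lower, and voom called 3 higher and 2 lower. Over all tested genes the shares were 25.5% at an unadjusted p below 0.05, and 7.48% higher and 7.05% lower with voom. Slc38a9, the lysosomal arginine sensor that binds Ragulator, measured 3.01 ± 0.11 and 2.72 ± 0.22 FPKM (SD, n = 3; limma adjusted p = 0.338). Among 14 tested partners of the V-ATPase, 2 had an unadjusted p below 0.05, both lower, and voom called 0. Of 15 tested mTORC1 substrates and effectors, 6 had an unadjusted p below 0.05, 3 in each direction, and voom called 1 lower. At the same unadjusted threshold the TSC input list held 6 higher and 1 lower of 15 (voom 4 higher, 0 lower), and the list of mTORC1 inhibitors and mTORC2 held 1 higher and 1 lower of 8 (voom 1 and 1). The median log2 fold change of the 73 was -0.03. Only transcripts were measured, so neither acidification nor mTORC1 activity can be read from these values.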

How the data were processed

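M1-polarized bone marrow-derived macrophages gave 3 RNA-seq libraries of NSUN2-KO and 3 of NC, which were compared in the authors' deposited FPKM values, 1 column per library, assigned by group and replicate number in the titles. Per the labels' protocols, RNA was extracted with TRIzol. Per the submitters' processing notes, the tools included fastp, HISAT2 2.0.5 and featureCounts 1.5.0-p3 on GRCm38, with no roles stated. The sources used here do not give the counting strand or annotation release. The series' design text names 3 biological replicates in each group but 2 for a differential test, and all 3 were used here. The members and gene lists were chosen with earlier results of these data known.

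FPKM times the deposited gene length gave whole reads for 100% of values (tolerance 0.01), and no libraries were duplicates (mean chi-square per gene within groups 5.66 to 11.6, where sampling alone gives about 1). Genes averaging 1 FPKM or more were tested with limma 3.58.1 in R 4.3.3, after log2(FPKM + 1), fitting a mean-variance trend and no covariate, with Benjamini-Hochberg adjustment over all 9443 genes, at 0.05. Fold changes on this scale understate those of low genes. Named were all members, called list genes and Tcirg1, Rragb, Slc38a9, Tfeb and Tfe3. The values of 1 called list gene are not reported here. GC content is the mean over a gene's GENCODE vM21 transcripts. On simulated reads with these depths, the fit recovered 2% of 1.1-fold, 40% of 1.25-fold and 94% of 1.5-fold changes (50 genes each among 9443), and 10.8% of its calls were false. Alternatives were pseudocounts of 0.1 and 5, other filters, no trend, TPM and median-ratio scaling, voom on reads, protein-coding genes only, a replicate block, removal of the GC content and length trend (loess, span 0.5), and leaving out each library.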

Additional observations from a re-analysis of the deposited data

How the results depend on the processing

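Members called lower numbered 1, and 0 after TPM or median-ratio scaling, without a filter, without the variance trend or with the replicate block, under which Lamtor1 had a limma adjusted p of 0.125. The number was 2 after removal of the GC content and length trend, with a filter at 5 FPKM, or when limited to protein-coding genes, 4 with voom, and 0 to 1 without 1 library. Members called higher numbered 0 in all 17 alternatives. Over all genes, 396 higher and 406 lower calls became 147 and 118 with no filter, 190 and 161 with the replicate block, 706 and 666 with voom, and 149 to 312 and 121 to 283 without 1 library, and lower calls were 254 without the trend. Replicate numbers did not pair the libraries (correlation of deviations -0.0095, -0.030 and 0.0034 for the 3 numbers), and the block together with the GC content correction was therefore not run. Of the 30 members, 19 kept their direction in every alternative. The other 11 had a change of sign in at least 1 alternative. With the GC content and length trend removed, the log2 fold change turned to 0.033 for Atp6v0b, 0.014 for Flcn, -0.049 for Rragc, -0.021 for Atp6v1d and -0.00082 for Atp6v1c1. Without 1 library the range was -0.058 to 0.017 for Atp6ap2, -0.0046 to 0.049 for Atp6v0a2, -0.074 to 0.028 for Atp6v0b, -0.016 to 0.012 for Atp6v1c1, -0.046 to 0.071 for Atp6v1e1, -0.18 to 0.0070 for Lamtor4, -0.062 to 0.028 for Rraga, -0.028 to 0.033 for Rragc and -0.048 to 0.11 for Tsc1. The cause was not tested. With 3 libraries per group, 2% of simulated 1.1-fold and 94% of 1.5-fold changes were recovered. The simulation used the same spread setting for all genes and changed 50 genes at each fold, so these shares may not hold for the members. In the data Lamtor1 was called at a log2 fold change of -0.14. A member that was not called is not thereby shown to be unchanged. The contrast of Atp6v1a with Atp6v1b2 was added after seeing the data.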
